A study of Mus musculus with 4 samples.

Results

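The aryl hydrocarbon receptor (AHR) and its classical target genes were followed through Th17 cultures that lacked STAT3 or STAT5. The set holds 7 genes chosen by name: the receptor gene Ahr, its dimer partner Arnt, its repressor Ahrr and the target genes Cyp1a1, Cyp1b1, Tiparp and Nqo1. Every probe set that names only the gene in question was used, which gave 16 probe sets for these 7 genes, out of 45101 probe sets and 18194 genes on the array.

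The cultures were of mouse CD4+ T cells on the C57BL/6J background, sorted as naive (CD44-, CD62L+) cells from spleen and lymph nodes and carrying the OT2 T cell receptor transgene. All were activated through CD3 and CD28 for 72 h with IL-6 at 20 ng/ml, TGF-beta at 2 ng/ml and an antibody to IL-4. There was 1 culture and 1 array for each of 4 groups. The stat3 fl/fl OT2 control (STAT3 wild type) and the CD4-Cre stat3 fl/fl OT2 cells (STAT3-deficient) received an antibody to IL-2 at 10 µg/ml. The stat5 fl/fl OT2 control (STAT5 wild type) and the CD4-Cre stat5 fl/fl OT2 cells (STAT5-deficient) received IL-2 at 100 IU/ml instead. Both controls thus carry floxed alleles without Cre. In the deficient cells Cre is driven by the Cd4 promoter, so deletion begins in the thymus. The age, the number of mice behind each culture and the culture medium are details that the labels do not give. The medium is relevant background because tryptophan products in it can act as AHR ligands.

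No group had a replicate. No difference between arrays can therefore be checked against a spread between cultures, p-values are left out, and precision is limited by there being 1 array a group. Levels are deposited values in log2 units. A difference of at least 1, or 2-fold, is called higher or lower. Levels under 6.20, the median of all deposited values, were not counted as signal, and 12440 genes with a level above 6.20 on at least 1 array were compared. All 7 genes were among them, although Nqo1 and Cyp1a1 each passed through 1 array. For Cyp1a1 that was the STAT3 wild-type array and for Nqo1 the STAT5-deficient array. The signs of their differences from those arrays were thus set by the filter. In the pair that tests STAT3, the median of these 12440 genes was -0.20 as deposited, so member values are read against that shift. Stat3 was lower on the array labelled STAT3-deficient for the 2 of its 4 probe sets with the highest levels (-2.97 and -2.94), and the other pair stood at -0.41 and -0.22. Stat5a and Stat5b were lower on the array labelled STAT5-deficient for all 4 of their probe sets (-2.97 to -5.98). Both samples titled as deficient have a genotype label with Cre that nonetheless ends in the words wild type. The titles were followed.

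AHR is a basic helix-loop-helix PAS protein that waits in the cytosol with HSP90 and other chaperones. On binding a ligand, such as a planar aromatic pollutant or a tryptophan product, it enters the nucleus, pairs with ARNT and binds DNA at xenobiotic response elements. Its targets include the cytochrome P450 enzymes CYP1A1 and CYP1B1, which oxidise such ligands. AHRR, which competes for ARNT, and TIPARP, an ADP-ribosyltransferase that modifies AHR, restrain the receptor. NQO1, a quinone reductase, is a target of both AHR and the oxidative stress factor NRF2. Among helper T cells, Th17 cells are known for high Ahr, and the receptor promotes IL-22 production in them.

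The sequences upstream of 4 target genes are printed because the core letters of the AHR response element stand in each. They are RefSeq sequences of build GRCm38.p6, the 250 bases before the annotated start of the gene, written 5′ to 3′ on the strand of the gene. Capitals mark the core of the element, GCGTG, or its reverse complement. The Tiparp window is chr3:65528197-65528446 on the plus strand. The Cyp1b1 window is chr17:79715062-79715311 on the minus strand. The Ahrr window is chr13:74292332-74292581 on the minus strand. The Cyp1a1 window is chr9:57697363-57697612 on the plus strand.
Tiparp: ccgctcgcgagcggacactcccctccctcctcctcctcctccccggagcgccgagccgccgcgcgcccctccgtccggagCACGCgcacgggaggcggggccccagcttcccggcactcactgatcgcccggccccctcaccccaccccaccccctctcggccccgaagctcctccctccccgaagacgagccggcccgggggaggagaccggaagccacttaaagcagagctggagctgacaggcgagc
Cyp1b1: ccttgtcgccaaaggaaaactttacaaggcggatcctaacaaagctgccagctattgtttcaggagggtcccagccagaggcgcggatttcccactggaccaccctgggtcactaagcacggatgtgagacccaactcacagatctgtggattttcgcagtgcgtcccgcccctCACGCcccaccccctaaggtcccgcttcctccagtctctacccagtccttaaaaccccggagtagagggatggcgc
Ahrr: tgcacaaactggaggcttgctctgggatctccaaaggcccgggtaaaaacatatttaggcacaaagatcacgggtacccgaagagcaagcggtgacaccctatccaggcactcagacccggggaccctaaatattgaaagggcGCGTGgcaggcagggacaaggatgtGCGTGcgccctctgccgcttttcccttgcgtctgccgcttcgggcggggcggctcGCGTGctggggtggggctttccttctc
Cyp1a1: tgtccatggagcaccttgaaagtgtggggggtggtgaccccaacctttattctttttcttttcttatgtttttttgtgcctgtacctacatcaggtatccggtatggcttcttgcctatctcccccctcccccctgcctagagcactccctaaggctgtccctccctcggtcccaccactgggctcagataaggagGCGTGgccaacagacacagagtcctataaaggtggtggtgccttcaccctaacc

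Of the 7 genes, 6 matched a promoter entry by symbol, all but Ahr. The core GCGTG, searched on both strands, was found in 5 of these 6 windows, against 28.2% of 32851 windows of the same length in the table. One of the 5 is the window of Arnt, the partner of AHR. The 6 windows held 53.2% to 75.2% G and C, and the share over all windows was not matched for that content. Whether the core is more frequent here than in windows of like content was not tested. The Ahrr window held 3 copies, starting at positions -107, -82 and -27 from the start of the gene. Windows with 3 or more made up 2.77% of the table. The longer form TNGCGTG, which contains the core, stood in the Ahrr window alone and in 4.10% of all windows. The core is also one of the forms of the element that HIF-ARNT dimers bind, so the letters do not name the dimer. The Nqo1 window held neither form, and sequence farther upstream of any gene was not searched. The antioxidant response element that NRF2 binds, TGACNNNGC, matched at 2 places in the Arnt window and stood in 10.2% of all windows. The STAT element TTCNNNGAA stood in 0 of the 6 windows and in 7.02% of all windows. These are matches of letters. The deposited data hold no measurement of binding.

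**Figure D1:**
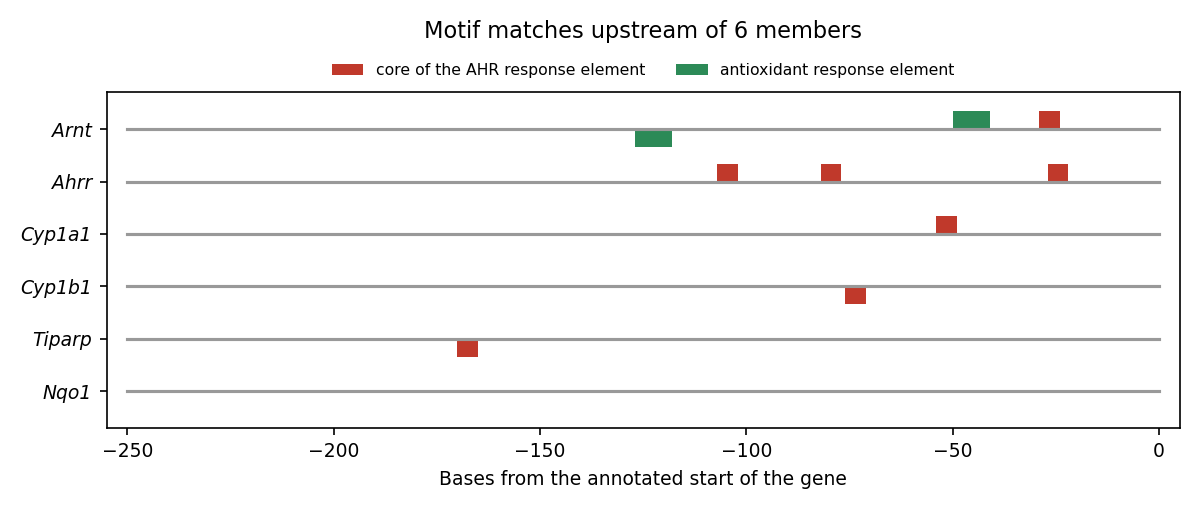
Positions of motif matches in the 250 bases upstream of 6 of the 7 genes, in bases from the annotated start. Boxes above a line lie on the strand of the gene and boxes under it on the other strand. Within these windows, the core of the AHR response element is seen 3 times for Ahrr and once each for Arnt, Cyp1a1, Cyp1b1 and Tiparp. It is not seen in the Nqo1 window, and the 2 antioxidant element matches lie in the Arnt window.

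Ahr itself was high on 3 arrays and lower on the array without STAT3. Its level was 12.17 in STAT3 wild-type, 9.46 in STAT3-deficient, 11.90 in STAT5 wild-type and 12.30 in STAT5-deficient cells. The 3 arrays with STAT3 lay within 0.41 of each other at most, and the STAT3-deficient array stood at -2.43 relative to the lowest of them. The difference without STAT3 was -2.71, or 6.53-fold. The other probe set for Ahr had low levels of 6.63, 5.60, 6.74 and 6.59 in the same order of arrays. It showed the same order of the STAT3 pair with a smaller difference of -1.03, so the size for Ahr depends on the probe set.

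Arnt, the partner that AHR shares with the HIF proteins, was nearly level across the cultures. Its values were 8.54 in STAT3 wild-type, 8.41 in STAT3-deficient, 8.64 in STAT5 wild-type and 8.67 in STAT5-deficient cells, a range of 0.26. The 2 further probe sets above 6.20 on all arrays had ranges of 0.35 and 0.75. The difference without STAT3 was -0.13, less than the shift of the median gene, and it was 0.12 with arrays centred on their medians. The remaining 2 probe sets lay near or under 6.20, and 1 of them, under it on all 4 arrays, differed by -1.67 in that pair. For the same transcript, 5 probe sets thus gave -1.67 to 0.15.

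Ahrr, the repressor, was highest where IL-2 was neutralised and STAT3 present. It stood at 7.52 in STAT3 wild-type, 5.82 in STAT3-deficient, 6.63 in STAT5 wild-type and 6.82 in STAT5-deficient cells. The difference without STAT3 was -1.71, or 3.26-fold, and its lower side lay under 6.20, so that its exact size is uncertain. Ahrr has 1 probe set.

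Tiparp, the ADP-ribosyltransferase gene, showed the same order of arrays as Ahrr at higher signal. Its level was 11.07 in STAT3 wild-type, 8.60 in STAT3-deficient, 9.59 in STAT5 wild-type and 9.92 in STAT5-deficient cells. The array of STAT3 wild-type cells stood highest, the IL-2-treated pair between, and the STAT3-deficient array lowest. The difference without STAT3 was -2.48, or 5.57-fold, and its other 2 probe sets gave -2.63 and -2.16. All 3 Tiparp probe sets were above 6.20 on all 4 arrays.

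Cyp1b1, the P450 enzyme gene, had the widest range of the 7 genes. It stood at 8.60 in STAT3 wild-type, 4.52 in STAT3-deficient, 9.36 in STAT5 wild-type and 9.41 in STAT5-deficient cells. The 3 arrays with STAT3 were clearly above 6.20, and the STAT3-deficient array was under it. The difference was -4.09, or 17.0-fold, and only 19 of the 12440 genes had a lower value. The deposited values are coarsely graded at that end: 369 probe sets of the STAT3-deficient array share the value given for Cyp1b1, so the fold is uncertain in size. A second probe set of the gene ran from 6.09 to 3.78 in that pair (-2.31) and to 6.66 and 6.60 on the STAT5 arrays. The third, under 6.20 on all arrays, stood at -0.30.

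Cyp1a1, the most widely used readout of AHR activity, was near the limit of signal. Its level was 6.87 in STAT3 wild-type, 6.16 in STAT3-deficient, 5.29 in STAT5 wild-type and 5.56 in STAT5-deficient cells. Only the first of these exceeded 6.20, and the difference without STAT3 was -0.71, within 2-fold. Both arrays from IL-2-treated cells lay under the STAT3-deficient array, an order that no other of the 7 genes showed.

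Nqo1, the quinone reductase gene, was likewise low, at 5.67 in STAT3 wild-type, 5.41 in STAT3-deficient, 5.46 in STAT5 wild-type and 6.23 in STAT5-deficient cells. The last of these exceeded 6.20 by a narrow margin. No pair differed by 2-fold, and the widest difference was 0.77 without STAT5. At this level 139 to 306 probe sets of an array share the value given for Nqo1.

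**Figure D2:**
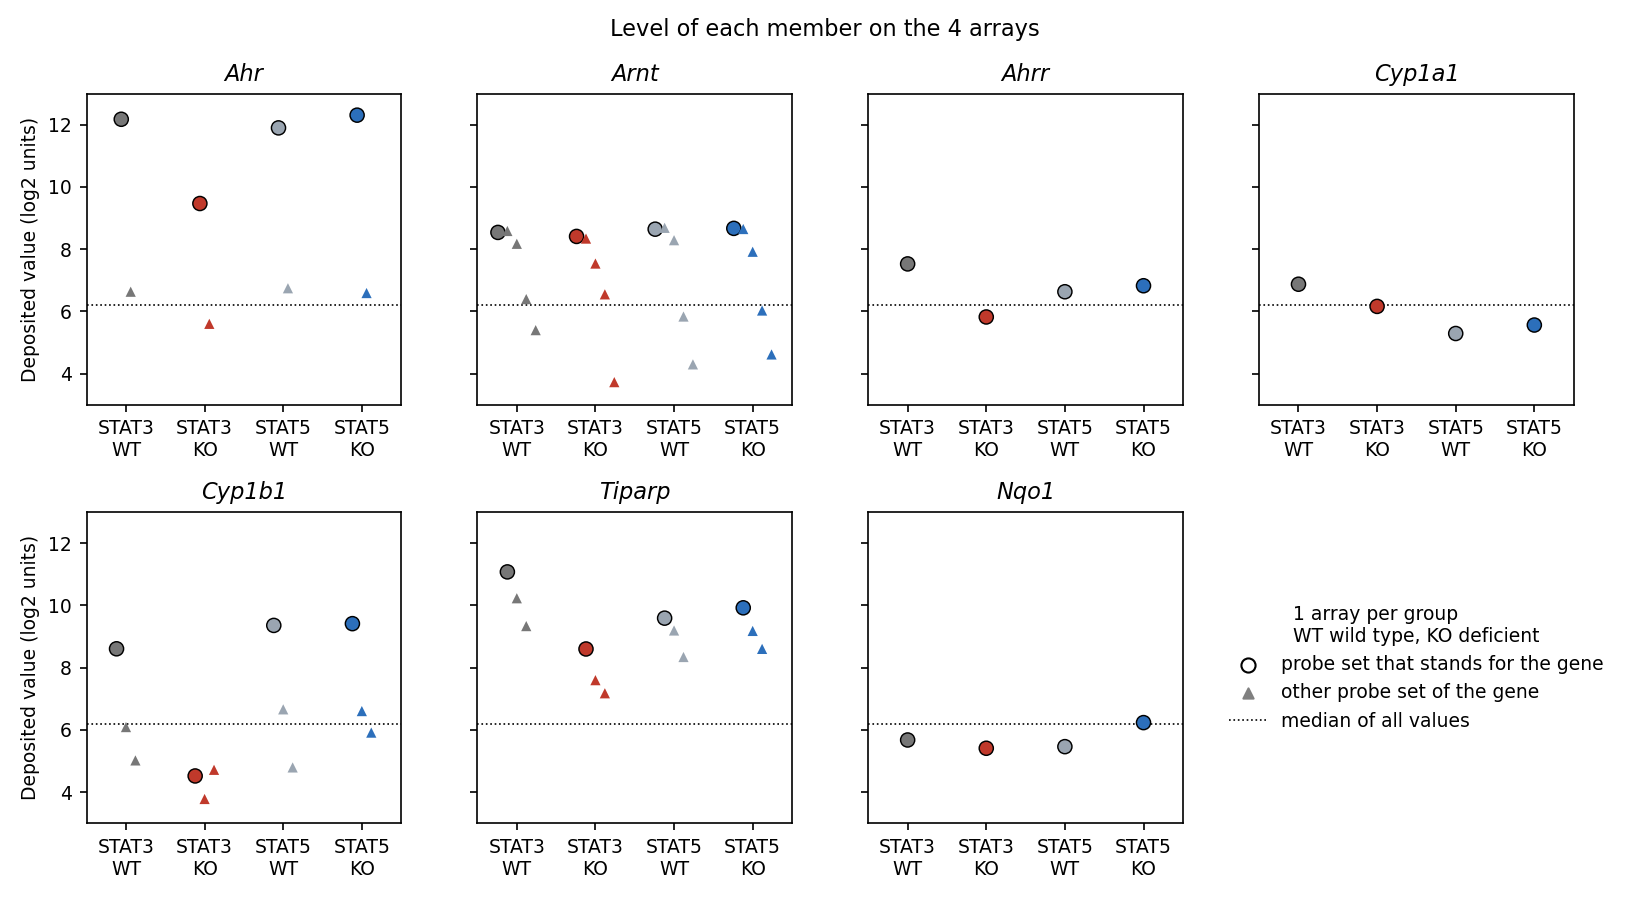
Deposited level of each probe set on the 4 arrays, 1 array per group, in log2 units. Circles are the probe set that stands for the gene (the highest mean), triangles its other probe sets, and the dotted line the median of all values (6.20). Ahr, Ahrr, Cyp1b1 and Tiparp are lower on the STAT3-deficient array than in its control, Arnt is level, and Cyp1a1 and Nqo1 lie near the dotted line.

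The first comparison asks what STAT3 contributes with IL-2 neutralised. Without STAT3, 4 of the 7 genes were lower by at least 2-fold (Cyp1b1, Ahr, Tiparp and Ahrr) and 0 were higher. Over all 12440 genes, 7.23% were lower and 2.85% higher. The median of the 7 was -1.71 against -0.20 for all genes. Over probe sets, 9 of 16 were lower by 2-fold, 0 higher, and 15 lay below 0. Of all probe sets on the array, 7.02% were lower, 1.95% higher and 69.0% below 0. The receptor, its repressor, its feedback enzyme and 1 of its P450 targets were thus lower together, while the partner Arnt was not. With arrays centred on their medians the same 4 genes were called, at -3.84 for Cyp1b1, -2.46 for Ahr, -2.23 for Tiparp and -1.46 for Ahrr. Averaging all probe sets of a gene brought Ahr to -1.87 and Cyp1b1 to -2.23, over 1.5 times smaller as folds.

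For 2 of the 7 genes, Ahr and Cyp1b1, the STAT3-deficient array was at least 2-fold under each of the 3 other arrays. This rule was added after the values were seen, and 3.11% of all genes met it. Tiparp stood at -0.99 relative to the lowest other array and Ahrr at -0.81. The count depends on the probe set, since the other 2 for Tiparp met the rule (-1.58 and -1.17) and the other 1 for Ahr did not (-0.99). The 3 other arrays differ from the STAT3-deficient one in IL-2 treatment as well as in STAT3, apart from its own control.

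The second comparison asks what STAT5 contributes in the presence of IL-2. No member differed by 2-fold: 0 of 7 were higher and 0 lower, against 1.86% of all genes higher and 1.74% lower. All 7 lay above 0 as deposited, from 0.026 for Arnt to 0.77 for Nqo1, with Ahr at 0.41, Tiparp at 0.33, Cyp1a1 at 0.27, Ahrr at 0.19 and Cyp1b1 at 0.057. Nqo1 was above 6.20 only on the STAT5-deficient array, so the sign of its difference here was set by the filter. The median of the 7 was 0.27 against 0.06 for all genes. With arrays centred, Arnt (-0.04) and Cyp1b1 (-0.01) fell on the other side of 0. The signs also varied with the probe set: 11 of 16 lay above 0 and 5 below, where 57.6% of all probe sets lay above. The other Ahr probe set stood at -0.15, which brought the mean for Ahr to 0.13, and a second Tiparp probe set stood at -0.01. Among the 16 probe sets, 1 passed 2-fold, the third probe set of Cyp1b1 (1.12), which lay under 6.20 on all 4 arrays.

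The third comparison sets the controls side by side: STAT5 wild-type cells with IL-2 added against STAT3 wild-type cells with IL-2 neutralised. The difference in floxed allele and the difference in IL-2 cannot be told apart. Cyp1a1 (-1.58, 3.00-fold) and Tiparp (-1.49, 2.80-fold) were lower with IL-2, so that 2 of 7 genes were lower and 0 higher, against 2.95% and 2.35% of all genes. Cyp1a1 was above 6.20 only on the STAT3 wild-type array, so the sign of its difference here was set by the filter. Ahrr stood at -0.89, Ahr at -0.28, Nqo1 at -0.21, Arnt at 0.10 and Cyp1b1 at 0.75. The genes that AHR induces did not share a direction here, since Cyp1b1 lay above 0 while Tiparp, Cyp1a1 and Ahrr lay below it. The other Tiparp probe sets gave -1.04 and -0.99, and the lower side of the Cyp1a1 difference lay under 6.20. Both comparisons with the STAT3 wild-type array share that array, so its own level enters each.

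The STAT3 pair and the STAT5 pair share no array. Set against each other, the difference without STAT3 minus the difference without STAT5 was -4.14 for Cyp1b1, -3.12 for Ahr, -2.81 for Tiparp, -1.90 for Ahrr, -1.04 for Nqo1, -0.98 for Cyp1a1 and -0.15 for Arnt. With 1 array a group this difference has no test, and the pairs were cultured with different IL-2 treatment. The value for Nqo1 came to -0.73 with arrays centred.

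**Figure D3:**
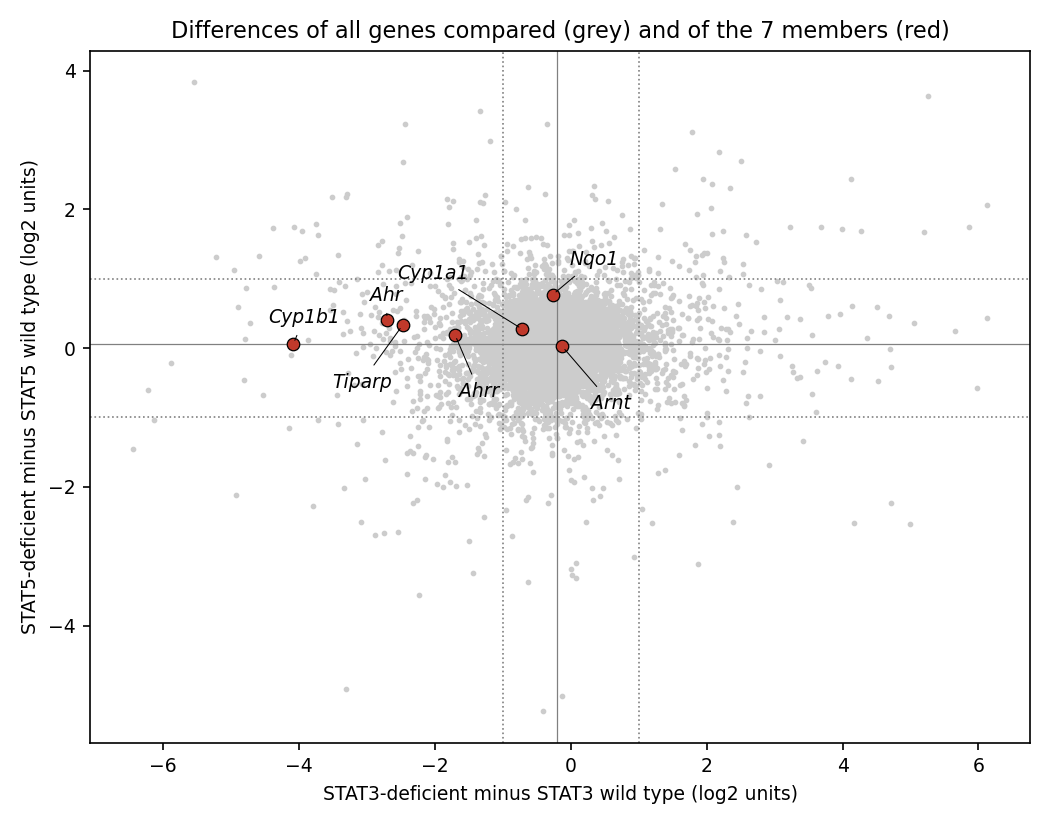
Difference without STAT3 (horizontal) and without STAT5 (vertical), in log2 units, for the 12440 genes compared (grey points) and the 7 genes described (red points). Dotted lines mark 2-fold and solid lines the medians of all genes. Cyp1b1, Ahr, Tiparp and Ahrr lie left of the 2-fold line on the horizontal axis, and all 7 genes lie within 2-fold on the vertical axis.

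Patterns across the 4 arrays were compared by the Euclidean distance between log2 values, each gene centred on its own mean. The gene nearest to Ahr was Stat3, itself the targeted gene in the first pair, at a distance of 0.21. Its levels were 12.87 and 9.93 in the STAT3 pair and 12.33 and 12.80 in the STAT5 pair, control first. Frmd6 (0.28), Spsb1 (0.29), Myo10, an unconventional myosin (0.31), and Prss46 (0.32) followed. The other members were farther from Ahr than these: Tiparp was the gene at rank 387, Ahrr at 467 and Cyp1b1 at 2123 of the genes compared. Nqo1 was at 3990, Arnt at 6395 and Cyp1a1 at 11614. Values were not scaled, so the distance counts the size of a change as well as its shape. A gene level on all arrays would lie at 2.32 from Ahr and at 4.04 from Cyp1b1, whose change was larger. Cyp1b1 was nearest to Frmd4b (0.68), Il17a, the signature cytokine gene of Th17 cells (0.77), and Tgm2, a transglutaminase (0.84), and Ahr was at rank 47 (1.84). Tiparp was nearest to Mxd1, a MYC antagonist (0.19), Gnb5, a G protein subunit (0.28), and Utf1 (0.29), with Ahrr at rank 31 (0.57). Ahrr was nearest to Rab31, Dpp7 and Lrrc38 (0.14 each). Arnt was nearest to Oaz1, Prkra and Mfng, at distances of at most 0.02. Cyp1a1 was nearest to 2310065F04Rik (0.15), Trbv13-2, a T cell receptor segment (0.17), and Hsd11b2 (0.22). Nqo1 was nearest to Slfn10-ps (0.08), Rasa3 and Tyw3 (both within 0.10). With 4 arrays, such distances are descriptions.

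The rest of the pathway was read through lists of genes, each given by how many members were called and by its median, beside medians over all genes of -0.20 without STAT3, 0.06 without STAT5 and 0.06 between controls. Counts are of genes past the signal limit, and are to be read against the shares of all genes given above: 2.85% higher and 7.23% lower without STAT3, 1.86% and 1.74% without STAT5, and 2.35% and 2.95% between controls. A difference with 1 side under 6.20 has no exact size, and such genes are marked as uncertain in size. The cytosolic complex and degradation machinery of AHR had 7 of 10 genes past the limit and was nearly level. Without STAT3, 0 of these 7 were called, with a median of -0.24, and Src, a kinase released from the complex, was farthest at -0.83, with -1.04 for its other probe set. The chaperone gene Hsp90aa1 stood at -0.06. Without STAT5, Src was the 1 lower gene (-1.08), while its other probe set stood at -0.27, and the median was 0.04. Between controls 0 were called, with a median of 0.25 and the nuclear export gene Xpo1 farthest at 0.71.

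Relatives of AHR in the PAS family had 11 of 16 members past the limit. Without STAT3 the median was -0.39, and the 1 gene called was Hif1a, which encodes another partner of ARNT, at 13.44 in the control and 11.84 in deficient cells (-1.59). Its 4 probe sets gave -1.06 to -1.69. With arrays centred, 1 gene was higher as well. Without STAT5, Npas4 was higher (1.22), Hif1a stood at -0.06 and the median was -0.03, with 1 gene lower as well after centring. Between controls 0 were called, the median was -0.10 and Sim1 was farthest (-0.91).

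Genes induced by HIF-ARNT dimers were rarely called without STAT3. Of 17 past the limit, 1 was lower, Egln3, a HIF prolyl hydroxylase (-1.78), which as a share is no more than that of all genes. The list median was -0.60 as deposited, -0.36 with arrays centred and -0.39 after intensity-dependent centring. The medians of all genes were -0.20, 0.05 and -0.006 in the same order. Of the 17, 16 lay below 0 as deposited, 13 with arrays centred and 16 after intensity-dependent centring. As deposited, 69.3% of all genes lay below 0. Without STAT5, 4 were lower: Egln3 (-1.92), Mxi1 (-1.66), the collagen hydroxylase gene P4ha1 (-1.18) and the mitophagy gene Bnip3 (-1.16). The median there was -0.55, and 16 of 17 lay below 0 against 40.6% of all genes. Between controls the median was 0.10 as deposited and -0.15 after intensity-dependent centring, 0 were called and Adm was farthest (-0.92).

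Coregulators of AHR had 12 of 14 genes past the limit, and 1 was called as deposited. Rb1, the retinoblastoma protein that binds AHR, was lower without STAT3 (-1.40, its other probe set -1.36) and stood at -0.63 without STAT5. With arrays centred, 1 gene was also higher without STAT3. The list medians were -0.35 without STAT3, 0.09 without STAT5 and 0.26 between controls, where Ncoa7 was farthest (0.52).

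Other genes reported as AHR targets in various tissues were called in both directions. Of 28 listed, 14 were past the signal limit, and Cyp1a2, Aldh3a1 and Ereg were among 8 that lay under it on all arrays. Without STAT3 the list had a median of -0.28, and 4 of its genes were higher and 3 lower. Scin, an actin-severing protein, was higher by 6.13, Xdh, xanthine dehydrogenase, by 1.94, the cytokine feedback gene Socs2 by 1.86 and Vav3 by 1.66. Lpxn, leupaxin, differed by -2.50, Gstm1, a glutathione transferase, by -1.15 and the cell cycle inhibitor gene Cdkn1a by -1.13. The sizes for Scin, Xdh and Vav3 are uncertain because their controls lay under 6.20. Scin and Vav3 were above 6.20 only on the STAT3-deficient array, so the signs of their differences here were set by the filter. With arrays centred, the counts were 6 higher and 1 lower. Without STAT5, 4 were lower: Socs2 (-3.12), the lipid receptor gene Cd36 (-3.01), Cyp2s1, a P450 gene (-2.34), and Xdh (-1.09). The median was -0.57, and 11 of 14 lay below 0. Between controls Cd36 (3.78), Socs2 (2.54) and the amino acid transporter gene Slc7a5 (2.32) were higher with IL-2, with a list median of -0.08. The deficient side of Cd36 and Xdh without STAT5, and the IL-2-neutralised side of Cd36, lay under 6.20, so these sizes are uncertain. Cd36 was above 6.20 only on the STAT5 wild-type array, so its signs without STAT5 and between controls were set by the filter.

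Genes linked to AHR in helper T cells were mostly lower without STAT3. The list was chosen with earlier results known and includes Il17a, the signature cytokine gene of Th17 cells. The part of AHR in these differences was not tested. Of 18 past the limit, 10 were lower and 1 was higher, and with arrays centred 9 were lower and 1 higher. The median was -1.33 as deposited and -1.09 with arrays centred. Il21, Il10, Il17a and Il1r1 were lower by the most (-6.23 to -4.08), and the 1 higher gene was Gzmb (2.72). Maf (-2.41), Rora (-1.85), Batf (-1.52) and Irf4 (-1.14) were lower as well, although the Irf4 call was lost with arrays centred. The deficient side of Il21, Il10 and Il1r1 and the control side of Gzmb lay under 6.20, so these sizes and their order are uncertain. Gpr15, a gut homing receptor gene that AHR binds, differed by -3.87, and Ikzf3, which encodes Aiolos and is induced by AHR in Th17 cells, by -2.66. Both were picked out after their values were seen. Like Maf, Rora, Batf and Irf4, they lie outside the rule that names up to 4 genes per direction. The other Ikzf3 probe sets gave -1.62 and -1.58. Without STAT5, Gpr15 stood at 0.12 and Ikzf3 at -0.10, close to their control, as Ahr was. In that pair 3 were higher (Il1r1, 1.75, Gzmb, 1.53, and Batf, 1.0) and 3 lower (Foxp3, -3.37, Il10, -2.12, and Entpd1, -1.21), with a median of 0.01. The Batf call was lost with arrays centred, and the deficient side of Foxp3 and Entpd1 lay under 6.20. Between controls Foxp3 (3.79) and Gzmb (2.24) were higher with IL-2, and Il1r1 (-1.44), Rora (-1.13) and Itgae (-1.04) lower, counts that became 3 higher and 1 lower with arrays centred, and the median was 0.06. The lower side of Foxp3 and Gzmb lay under 6.20. Foxp3 was above 6.20 only on the STAT5 wild-type array, so its signs without STAT5 and between controls were set by the filter. Il22, the cytokine gene most closely tied to AHR, was not analysed here.

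Enzymes that make or break down tryptophan-derived ligands were low or level. Ido1, Ido2, Tdo2 and Il4i1, which open the pathways from tryptophan, lay under 6.20 on all 4 arrays. Of 11 genes past the limit, 1 was called without STAT3, Kynu, kynureninase (1.23, its other probe set 0.85), and 2 were higher with arrays centred. Without STAT5, 0 were called and Haao was farthest (-0.80). The medians were 0.21 without STAT3, 0.12 without STAT5 and 0.15 between controls. Between controls, both chains of the transporter that carries tryptophan and kynurenine into T cells were higher with IL-2. Slc7a5 went from 9.89 to 12.21 (2.32) and Slc3a2 from 10.70 to 12.08 (1.38).

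NRF2 targets, the other pathway that acts on Nqo1, had 27 of 32 genes past the limit. Without STAT3, Ephx1, epoxide hydrolase, was higher (1.62), and Gstm1 (-1.15) and Fth1, ferritin heavy chain (-1.06), lower, with a median of -0.28. With arrays centred, 0 were lower. Without STAT5, 0 were called and Nqo2, the paralog of Nqo1, was farthest at 0.95, while another of its probe sets, above 6.20 on all arrays, stood at 1.14. The median was 0.05. Between controls Hmox1, heme oxygenase, was higher with IL-2 (1.40), 2 genes were higher with arrays centred, and the median was 0.16.

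Among the ADP-ribosyltransferase relatives of Tiparp, 18 of 20 were past the limit and 0 were lower without STAT3. Parp8 was the 1 gene called without STAT3 (2.48, higher), and Macrod2 the 1 called without STAT5 (1.0, higher). With arrays centred, 3 were higher without STAT3, and without STAT5 the Macrod2 call was lost and 1 gene was lower. Between controls 0 were called and Parp9 was farthest (-0.77). The medians were -0.21 without STAT3, 0.14 without STAT5 and -0.08 between controls. Among P450 genes and their electron donors, 13 of 17 were past the limit and 3 were lower without STAT3, with a median of -0.53. Cyp11a1, the enzyme that starts steroid synthesis, differed by -2.91, and its probe sets by -0.61 to -2.91. Cyp2d22 differed by -1.82, with its deficient side under 6.20, and Cyb5a, cytochrome b5, by -1.48. Cyp2d22 was above 6.20 only on the STAT3 wild-type array, so the sign of its difference was set by the filter. Without STAT5, 0 were called and Cyb5a was farthest (-0.74), and between controls Cyp4f16 was lower (-1.22). The medians were -0.11 and -0.23 in these comparisons.

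**Figure D4:**
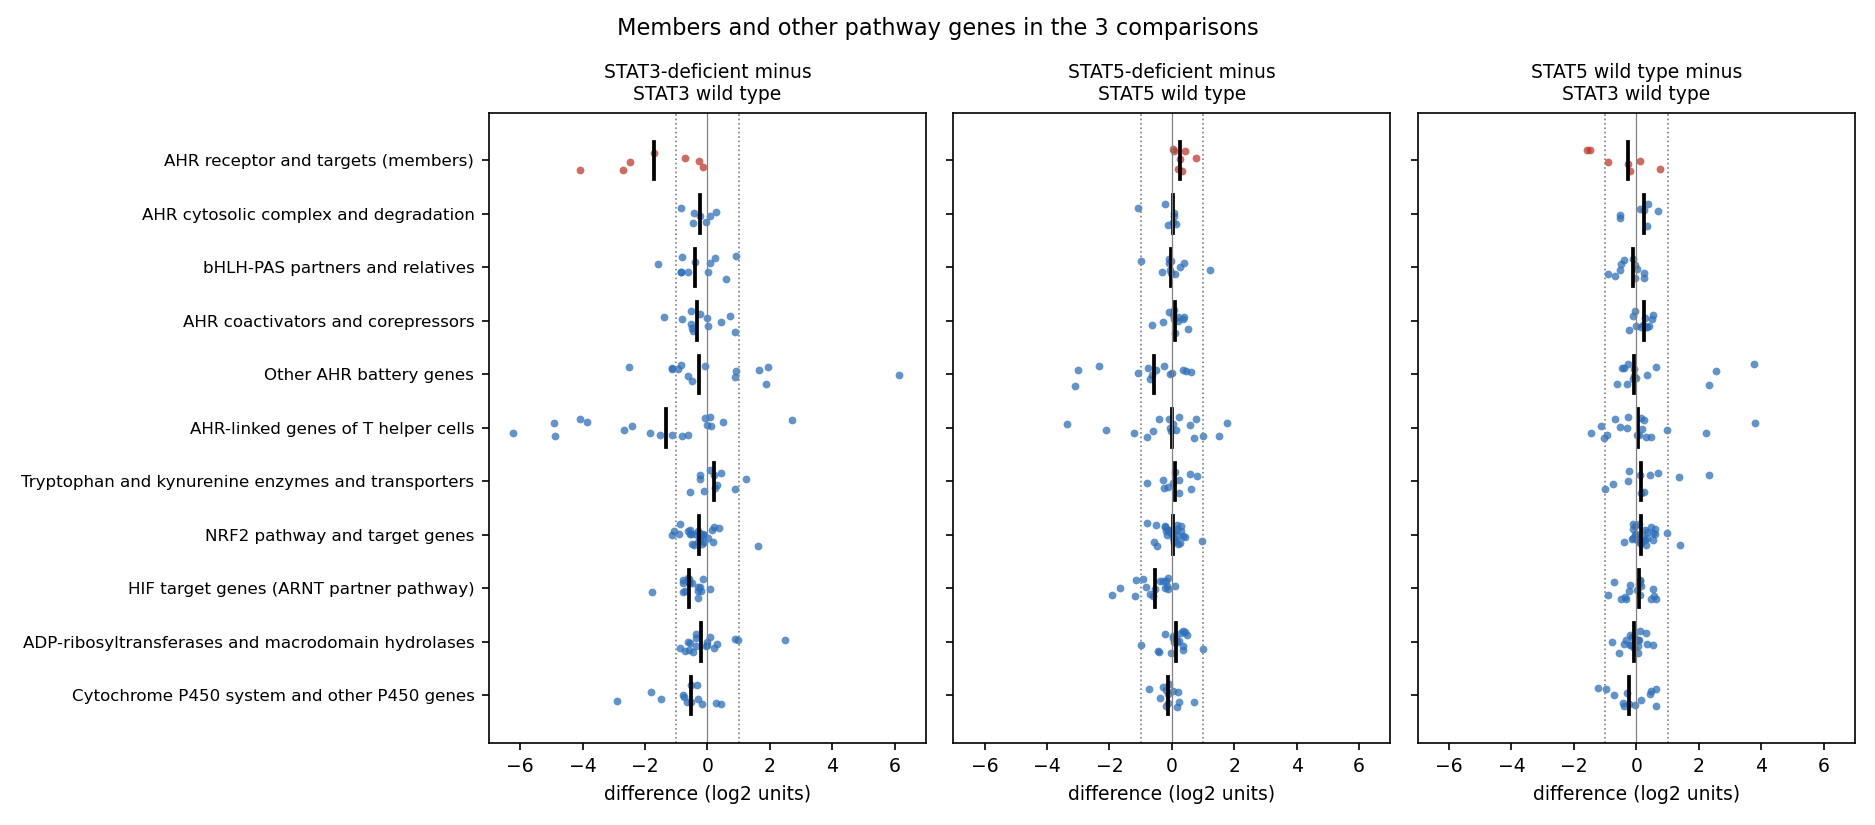
Differences in log2 units for the 7 genes (red) and for the genes past the signal limit of 10 other lists (blue) in the 3 comparisons. Each point is a gene, thick bars are list medians and dotted lines mark 2-fold. The members' bar lies at -1.71 in the STAT3 comparison and near 0 in the others. The bar for AHR-linked genes of T helper cells lies at -1.33 in the STAT3 comparison.

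In bulk samples, fewer cells that express a gene and less RNA per cell cannot be told apart. The 5 measured CD4 T cell markers were above 6.20 on all 4 arrays, and their summed level was 14.2 to 14.5 in log2 units. Of 5 B cell markers, 2 were above it in STAT3 wild-type, 0 in STAT3-deficient, 1 in STAT5 wild-type and 3 in STAT5-deficient cells. Pax5 and Blk were above it in STAT3 wild-type and STAT5-deficient cells, Cd79b in both STAT5 groups, and Ms4a1 and Cd79a on no array. The summed level of the 5 was 8.11 to 8.49. Each sum in this paragraph adds all measured markers of a list, also those under 6.20, so it cannot be read against that limit. Of 7 myeloid and dendritic markers, 2 to 3 were above 6.20 on an array, with a summed level of 8.89 to 8.97. Csf1r (7.12 to 7.73) and Flt3 (6.41 to 7.07) were above 6.20 on all 4 arrays, and Itgam, Cd14, Fcgr3 and Itgax on none. Of 2 CD8 T cell markers 1 to 2 were above it, with a summed level of 8.14 to 8.59, and of 3 NK markers 1 to 2, with 7.51 to 7.88. The CD8 marker Cd8b1 stood at 7.70 to 8.06 across the arrays. Gamma delta T cells and group 3 innate lymphoid cells are also rich in Ahr, although the sort for naive CD4+ cells would remove most of them. Of 3 gamma delta markers measured, 2 were above 6.20 in STAT3 wild-type, 1 in STAT3-deficient, 1 in STAT5 wild-type and 3 in STAT5-deficient cells, with summed levels of 7.80, 7.30, 7.65 and 8.34. Of these, Trgv4 lay under 6.20 on both arrays of the STAT3 pair. Of the innate lymphoid markers, Kit stood at 5.67, under the limit, in STAT3 wild-type and at 7.42 in STAT3-deficient cells, and Ncr1 lay under 6.20 on all arrays, for summed levels of 6.63, 7.70, 6.03 and 5.73. The part of other cells in the differences was not tested.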

How the data were processed

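Total RNA of 4 cultures was biotin-labelled and read on 4 Affymetrix mouse arrays. The deposited values are 1 log2 expression value per probe set. Per the submitters' processing notes the authors used Affymetrix Power Tools. No source used here gives the version, the algorithm or the centring, and the log2 scale was inferred from the range of 2.48 to 15.09. Array medians ran from 6.10 to 6.34, and an array holds 3608 to 4276 distinct values.

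Groups follow the titles. The platform annotation names 1 gene for 34958 probe sets, several for 932 and none for 9211, and the last 2 kinds were not used. The identifiers of all 16 member probe sets matched RefSeq symbols. The probe set with the highest mean stood for a gene. Genes were kept above 6.20, percentile 50 of all values, on at least 1 array. Differences between arrays were called at 2-fold (log2 difference of 1), with no test. The calling code was run on simulated arrays, with shifts past the threshold in genes well above the limit and little noise. That run checks the code and gives no error rate for the calls made here. From each list, genes past 2-fold were named, up to 4 per direction, or the farthest one. Some genes are named outside this rule, among them Maf, Rora, Batf, Irf4, Gpr15 and Ikzf3. The 5 nearest patterns were named for Ahr and 3 for the others. Members and lists were chosen with earlier results of these data known. Promoter windows came from RefSeq (GRCm38.p6). Alternatives covered the probe set rule, the filter, the scaling and the fold. Python 3.11.15, pandas 2.3.3 and statsmodels 0.14.6 were used.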

Additional observations from a re-analysis of the deposited data

Results flagged for a closer look

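For the probe set that stands for each of the 7 genes, the difference without STAT3 and the difference without STAT5 had opposite signs as deposited. There was 1 array on each side, and the difference between them was not tested. The values were -2.71 and 0.41 for Ahr, -0.13 and 0.026 for Arnt, -1.71 and 0.19 for Ahrr, and -0.71 and 0.27 for Cyp1a1. They were -4.09 and 0.057 for Cyp1b1, -2.48 and 0.33 for Tiparp, and -0.27 and 0.77 for Nqo1. The signs of -0.71 for Cyp1a1 and 0.77 for Nqo1 follow from the 1 array through which each passed the signal limit. Of all 12440 genes, 39.3% showed this pair of signs as deposited. With arrays centred, 20.1% did, among them 5 of the 7 genes, all but Arnt and Cyp1b1. After intensity-dependent centring 23.7% did, among them 6 of the 7, all but Arnt. The signs also varied with the probe set. Both differences were below 0 for other probe sets of Ahr (-1.03 and -0.15), Arnt (-0.24 and -0.04, -0.64 and -0.37), Cyp1b1 (-2.31 and -0.06) and Tiparp (-2.63 and -0.01). Further ones of Arnt (-1.67 and 0.32), Cyp1b1 (-0.30 and 1.12) and Tiparp (-2.16 and 0.26) had opposite signs, and another of Arnt had both above 0 (0.15 and 0.19).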

How the results depend on the processing

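Of 246 values recomputed under other settings, 230 stayed on the same side of 2-fold or, for counts, within 1.5 times. Of the 156 among them that are differences, 10 changed sign, all of them at most 0.33 in size as reported (Arnt in each comparison and between the pairs, Tiparp and Cyp1b1 without STAT5, Nqo1 between controls). Many of the 246 could not change. A change of filter leaves the difference of each member as it was. Ahrr, Cyp1a1 and Nqo1 have 1 probe set each, so the probe set rules cannot move them. These counts are therefore not a measure of stability. The difference between the pairs for Nqo1 dropped under 2-fold under both centrings (-0.73 and -0.71). The 4 genes lower without STAT3 were called under each probe set rule, scaling and fold tried, while the filter at percentile 75 (8.29) left out Ahrr, Cyp1a1 and Nqo1. That filter left 1 gene lower between controls, 3-fold left 0, and at 1.5-fold 1 gene was higher there (Cyp1b1) and 1 without STAT5 (Nqo1). Over all genes, 1254 were called without STAT3, 448 without STAT5 and 659 between controls. With the filter at percentile 75 these were 774, 254 and 356, at 1.5-fold 3093, 1444 and 2584, and at 3-fold 522, 143 and 177. Without a filter, 679 were called without STAT5. Of called genes, 71.8% were lower without STAT3 as deposited, 52.6% with arrays centred and 56.3% after intensity-dependent centring. Between controls 55.7% were lower as deposited and 26.4% with arrays centred. Reading each other probe set of a member singly, added after the data were seen, changed the sign of 10 of 27 differences. Of these 1 passed 2-fold, an Arnt probe set under 6.20 on all arrays, at -1.10 between controls. That probe set also passed 2-fold without STAT3 (-1.67), as the third Cyp1b1 probe set did without STAT5 (1.12), while the third Cyp1b1 probe set without STAT3 (-0.30) and the third Tiparp probe set between controls (-0.99) did not pass it. The cause of these shifts was not tested. Signal over background is known only through the 6.20 limit. No paired analysis was possible because each group holds 1 array, and no array could be left out for the same reason.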
